A study of Mus musculus with 9 samples.

Results

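T-box genes encode transcription factors that share a DNA-binding domain, the T-box, and many of them mark where in the embryo a tissue forms. The 7 genes described here, Tbx1, Tbx2, Tbx3, Tbx4, Tbx5, Tbx15 and Tbx18, were named as T-box genes of head and limb. They were found by symbol among 22180 measured genes of adult mouse skeletal muscle, each by 1 probe set annotated to a single gene. All 7 were present, of 16 T-box genes measured in all.

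Tbx1 acts in the pharyngeal mesoderm of the mouse embryo, from which the jaw muscles arise. Tbx5 is known for starting outgrowth of the forelimb bud and Tbx4 for its expression in the hindlimb bud. Tbx2 and Tbx3 are mainly repressors, with roles in limb margins and the heart. Tbx15 is known in the mouse for a role in fast glycolytic muscle fibres, and Tbx18 for roles in somite borders, the epicardium and mural cells of vessels.

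All arrays came from male C57BL/6J mice, an inbred laboratory strain, aged 12 weeks, without a treatment or allele named in the labels. The 4 hindlimb muscles were the rectus femoris of the thigh, the tibialis anterior of the shin, and the soleus and gastrocnemius of the calf. The shoulder and forelimb group held trapezius, supraspinatus and triceps (n = 3), and the head group held masseter and digastric (n = 2). Only the muscle is labelled, and its region was assigned from anatomy. With 1 array per muscle, each SD is a spread between muscles of a region, so that muscle, animal and array cannot be told apart. No source used here says if an array held RNA of more than 1 mouse.

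The RefSeq promoter table (GRCm38.p6) held entries for 3 of the 7 genes, Tbx1, Tbx4 and Tbx18. The 2 annotated Tbx1 starts are shown because Tbx1 had the widest range over the muscles of the 7 genes. Each line gives the 250 bases before the start, 5′ to 3′, on the minus strand. Capitals mark the E-box CANNTG, the site type of myogenic factors, and would also mark the T-box core site GGTGTGA, both searched on both strands.
Tbx1 at chr16:18588900-18589149: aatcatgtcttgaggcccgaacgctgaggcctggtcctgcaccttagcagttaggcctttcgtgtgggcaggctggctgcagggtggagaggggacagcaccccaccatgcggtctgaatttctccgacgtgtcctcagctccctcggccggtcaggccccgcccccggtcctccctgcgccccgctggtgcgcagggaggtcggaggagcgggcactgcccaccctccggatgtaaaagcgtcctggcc
Tbx1 at chr16:18590672-18590921: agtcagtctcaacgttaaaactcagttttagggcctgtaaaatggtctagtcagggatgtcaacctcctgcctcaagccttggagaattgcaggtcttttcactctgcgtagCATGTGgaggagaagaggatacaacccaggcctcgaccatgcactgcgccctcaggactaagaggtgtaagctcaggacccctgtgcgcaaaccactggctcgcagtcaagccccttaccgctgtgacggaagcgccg
The window with higher coordinates held 1 E-box, which overlapped no other match, and the other held 0. Neither held GGTGTGA. Of 32851 such windows in the table, 66.2% held CANNTG and 3.33% held GGTGTGA. A match describes letters and is not a bound site.

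The values are log2 levels, and each array's median over all probe sets lay between 3.34 and 3.44. No detection calls were used. As a description of background, the 1383 probe sets of olfactory and vomeronasal receptor genes, which serve the nose, had a 95th percentile of 3.24 to 3.60 per array. Tbx1, Tbx2, Tbx3, Tbx4 and Tbx15 lay above it on all 9 arrays, Tbx5 on 4 and Tbx18 on 5. On the other arrays the levels of Tbx5 and Tbx18 cannot be told from background. Tbx2 reached no more than 4.51 and Tbx4 no more than 4.57, not far above it. The 10 myofibre markers averaged between 10.61 and 11.30 per array. The SD over probe sets was 1.92 to 1.96 in triceps, rectus femoris and gastrocnemius and 2.03 to 2.08 on the other 6 arrays, and values among these 6 arrays, 2 per region, are given where they bear on a result. White adipocyte markers averaged 7.65 in trapezius and 5.06 to 6.00 elsewhere, and salivary gland markers 3.90 in masseter and 2.85 to 3.36 elsewhere.

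**Figure D1:**
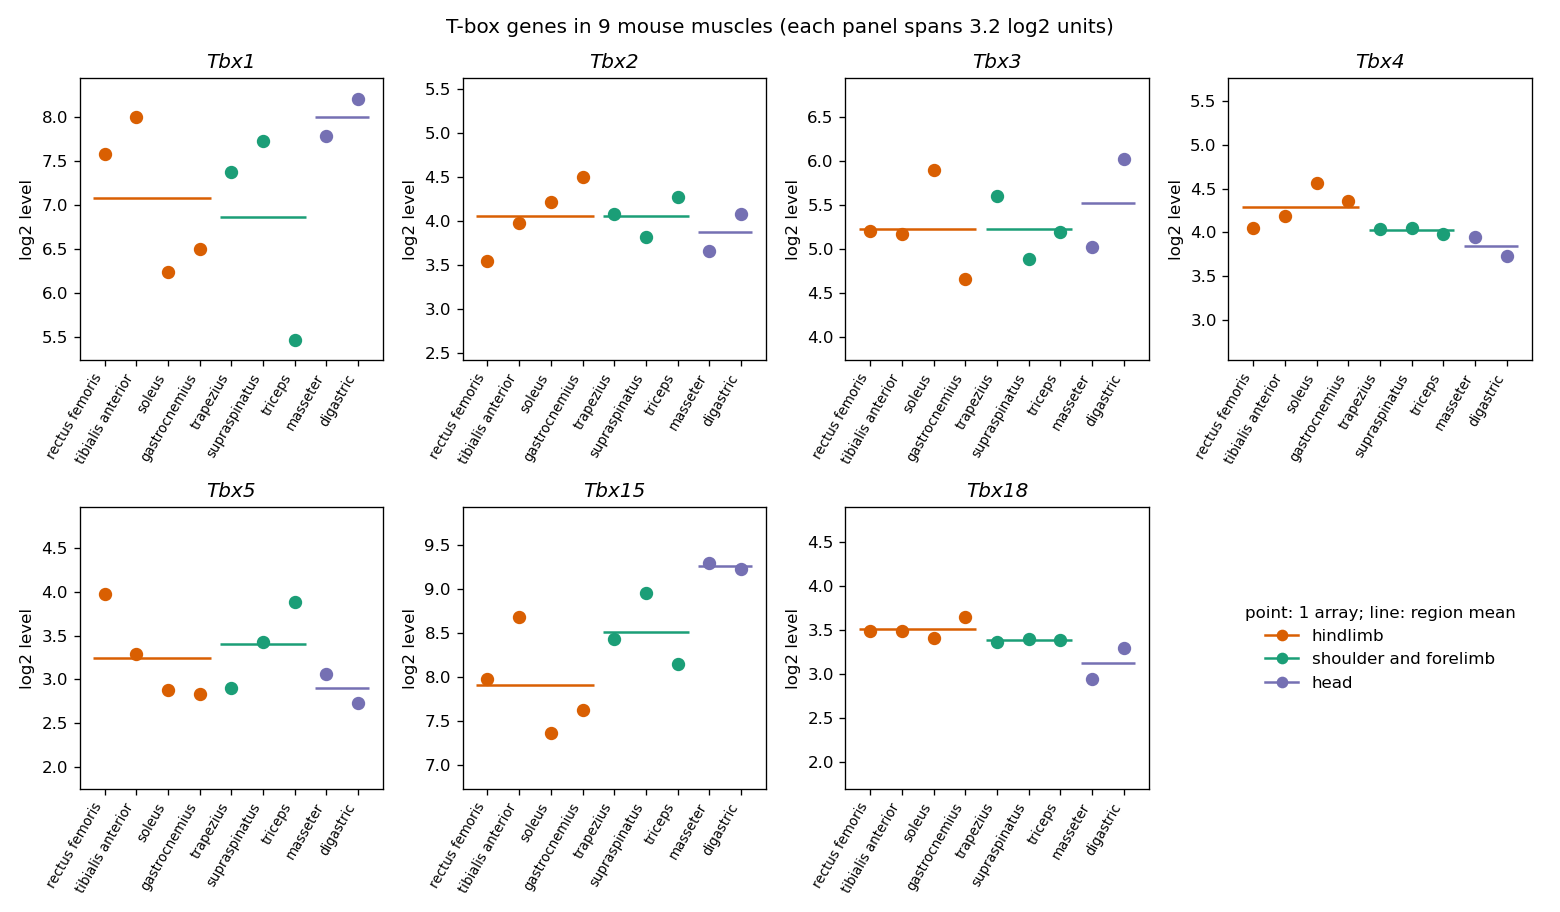
The log2 level (y axis) of each of the 7 T-box genes in 9 muscles (x axis), with 1 point per array, a line at each region's mean, and the same span of log2 units in every panel. Tbx15 is highest in masseter (9.30) and digastric (9.22), and Tbx1 ranges from 5.47 in triceps to 8.21 in digastric.

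The first comparison, hindlimb against head muscles, set limb against branchial arch derivatives. Tbx15 showed the largest difference, with lower levels in every hindlimb muscle than in both head muscles. Tbx4 was higher in every hindlimb than in every head muscle, by a small amount, and so were the values of Tbx18, which lay at background in both head muscles. Tbx1 averaged less in hindlimb muscles, with overlap. None of the 7 genes passed the limma test after adjustment over all genes.

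With limma, 0 of the 7 had an adjusted p under 0.05, where 0.00902% of all genes did. At an unadjusted p under 0.05 there were 3 of the 7 (Tbx4, Tbx15 and Tbx18), against 11.9% of all genes. The groups did not overlap for 2 of the 7 in the higher direction, against 11.4% of all genes, and for 1 in the lower direction, against 9.78%, or 21.2% in either direction. Of the 7, 4 had positive differences, and the median difference was 0.19, beside 0.04 over all genes.

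Tbx15 had log2 levels of 7.97 in rectus femoris, 8.69 in tibialis anterior, 7.36 in soleus and 7.62 in gastrocnemius. In the shoulder and forelimb group Tbx15 was at 8.43 in trapezius, 8.96 in supraspinatus and 8.14 in triceps, and in the head group at 9.30 in masseter and 9.22 in digastric. Both head arrays lay above the other 7, hindlimb and shoulder and forelimb muscles overlapped, soleus and gastrocnemius were the lowest, and supraspinatus and tibialis anterior came nearest to the head muscles. The mean was 7.91 ± 0.58 (SD, n = 4) in hindlimb and 9.26 ± 0.05 (SD, n = 2) in head muscles, a log2 difference of -1.35 (SE 0.34, 95% interval -2.10 to -0.60, adjusted p = 0.355). On the linear scale hindlimb muscles had 0.392 of the head level (95% interval 0.233 to 0.660). In bulk muscle, fewer cells of a type and less RNA per cell cannot be told apart.

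The difference in Tbx15 kept its sign under all 20 other settings, from -1.61 to -0.96, with adjusted p from 0.115 to 0.828. Among the 6 arrays of wider value range it was -1.24 (adjusted p = 0.668). With the trapezius counted as a head muscle it was -1.08. Tbx15 lay between the other regions in shoulder and forelimb muscles, at 8.51 ± 0.41 (SD, n = 3). Neighbouring regions in this order did not pass: hindlimb minus shoulder and forelimb was -0.60 (95% interval -1.26 to 0.06, adjusted p = 1.0), and shoulder and forelimb minus head was -0.75 (95% interval -1.54 to 0.04, adjusted p = 0.72).

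The slow fibre genes ran opposite to Tbx15 over the muscles. Of 10 slow fibre genes 9 had a higher mean in hindlimb than in head muscles and 0 passed. The mean over the 10 genes lay from 4.92 to 9.86 in hindlimb, from 5.14 to 6.86 in shoulder and forelimb, and at 4.45 and 4.85 in head muscles. Across the 9 arrays, which are of 1 strain and carry the region pattern, Tbx15 and this mean had Pearson's r of -0.76 and Spearman's rho of -0.80, and r was -0.66 without soleus. With the slow fibre mean as a covariate the Tbx15 difference between hindlimb and head was -0.96 (adjusted p = 0.269). The mean of 13 fast fibre genes had an r of 0.45 with Tbx15, and -0.27 without soleus. Of 9 endothelial markers 8 had a lower mean in hindlimb than in head muscles and 0 passed, with list means of 5.89 to 6.91 in hindlimb and of 6.79 and 7.02 in head muscles, and the part of these cells in the Tbx15 difference was not tested. The myofibre marker mean lay from 10.61 to 11.17 in hindlimb and at 11.21 and 11.30 in head muscles, and its part was not tested either. Tbx15 had an r of 0.73 with the myofibre mean, 0.41 with the endothelial mean and -0.59 with the mean of satellite cell and myogenic factors. Without soleus these were 0.74, 0.88 and -0.86. With the SD of the array over probe sets r was 0.44, and 0.91 without soleus. Among the 6 arrays of wider value range it was -0.58, and -0.97 with the slow fibre mean.

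**Figure D2:**
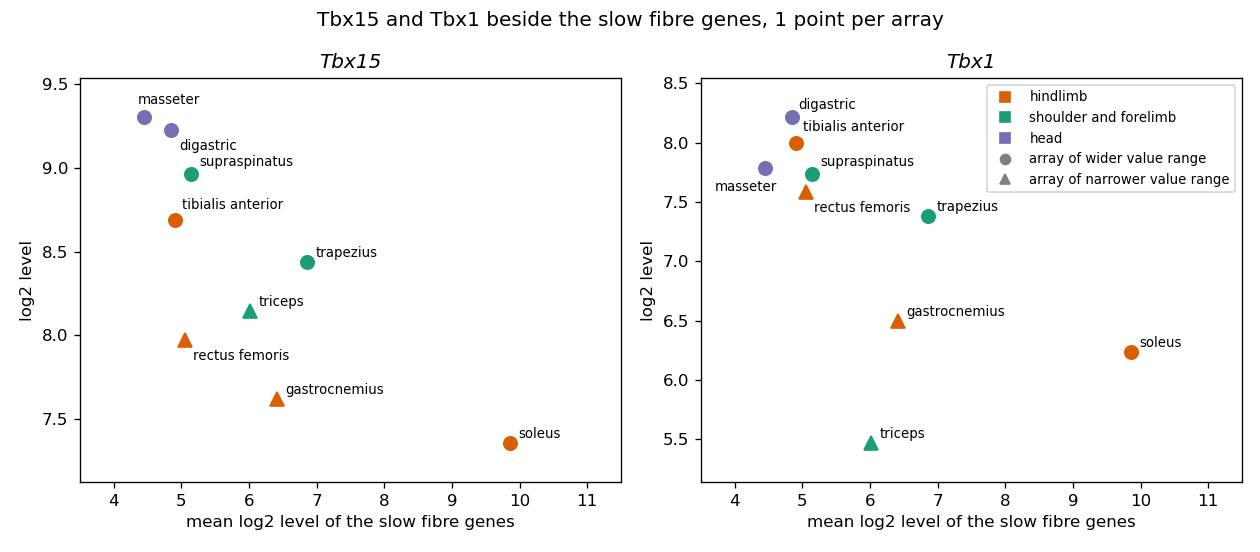
Log2 levels (y axes) of Tbx15 and Tbx1 against the mean log2 level of 10 slow fibre genes (x axis), 1 point per array, coloured by region, with triangles for the 3 arrays of narrower value range. Soleus has the highest slow fibre mean (9.86) and the lowest Tbx15 (7.36), while triceps has the lowest Tbx1 (5.47).

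Tbx1 was at 7.58 in rectus femoris, 8.0 in tibialis anterior, 6.24 in soleus and 6.50 in gastrocnemius. It was at 7.38 in trapezius, 7.73 in supraspinatus and 5.47 in triceps, and at 7.79 in masseter and 8.21 in digastric. Digastric was the highest, tibialis anterior exceeded masseter, and triceps, soleus and gastrocnemius were the lowest, so that hindlimb and head muscles overlapped. The range of 2.74 over the 9 arrays, 6.68-fold, put the SD of Tbx1 above that of 99.3% of genes, but only 24.4% of its variation lay between regions, near the 25.6% of the median gene.

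The mean of Tbx1 was 7.08 ± 0.85 (SD, n = 4) in hindlimb, 6.86 ± 1.22 (SD, n = 3) in shoulder and forelimb and 8.0 ± 0.30 (SD, n = 2) in head muscles. Hindlimb minus head was -0.92 (SE 0.63, 95% interval -2.31 to 0.47, adjusted p = 0.555), and -0.88 among the 6 arrays of wider value range (adjusted p = 0.754). Shoulder and forelimb minus head was -1.14 (SE 0.66, adjusted p = 0.756), and -0.44 without triceps. Hindlimb minus shoulder and forelimb was 0.22 (adjusted p = 1.0), and the sign turned to -0.48 without triceps and -0.09 without tibialis anterior. The trapezius, at 7.38, lay below both head muscles and within the hindlimb range.

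Tbx1 and Tbx15 varied together over the 9 arrays (r = 0.73, rho = 0.78), with low values of both in soleus and gastrocnemius. Tbx1 had an r of -0.62 and a rho of -0.82 with the slow fibre mean, and an r of -0.61 without soleus. With the SD of the array over probe sets Tbx1 had an r of 0.42, and 0.70 without soleus. The slow fibre covariate left a Tbx1 difference of -0.35 between hindlimb and head muscles (adjusted p = 0.802). In trapezius, with the highest adipocyte markers, Tbx1 ranked 6 and Tbx15 ranked 5 among the 9 muscles.

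The second comparison, hindlimb against shoulder and forelimb, concerned Tbx4 and Tbx5, the genes of the hindlimb and forelimb bud in the embryo. Neither passed the test between these adult muscles. Tbx4 was highest in hindlimb muscles and Tbx5 in rectus femoris, a hindlimb muscle, and in triceps. Of the 7 genes 0 passed, where 0.00451% of all genes did, and 0 had an unadjusted p under 0.05, against 3.65%. Groups did not overlap for 1 of 7, Tbx18, with values near background, in the higher direction, against 2.32% of all genes, and for 0 of 7 in the lower direction, against 2.3%. In either direction this share of all genes was 4.62%.

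Tbx4 was at 4.05 in rectus femoris, 4.19 in tibialis anterior, 4.57 in soleus and 4.36 in gastrocnemius. It was at 4.04 in trapezius, 4.05 in supraspinatus and 3.99 in triceps, and at 3.95 in masseter and 3.74 in digastric. Soleus and gastrocnemius were the highest and both head muscles the lowest, but rectus femoris lay beside supraspinatus. The mean was 4.29 ± 0.22 (SD, n = 4) in hindlimb, 4.02 ± 0.03 (SD, n = 3) in shoulder and forelimb and 3.85 ± 0.15 (SD, n = 2) in head muscles. Hindlimb minus shoulder and forelimb was 0.27 (95% interval -0.08 to 0.61, adjusted p = 1.0), and hindlimb minus head was 0.44 (95% interval 0.05 to 0.84, adjusted p = 0.399). The interval bounds a hindlimb excess over shoulder and forelimb at 1.53-fold on these values. Shoulder and forelimb minus head was 0.18 (95% interval -0.23 to 0.59, adjusted p = 0.844), and 0.07 without digastric. Under the slow fibre covariate the hindlimb and head difference was 0.29, and Tbx4 had an r of 0.77 with the slow fibre mean, or 0.43 without soleus.

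Tbx5 was at 3.97 in rectus femoris, 3.29 in tibialis anterior, 2.89 in soleus and 2.84 in gastrocnemius. It was at 2.90 in trapezius, 3.42 in supraspinatus and 3.89 in triceps, and at 3.07 in masseter and 2.74 in digastric. Only rectus femoris, tibialis anterior, supraspinatus and triceps lay above background, in both limb regions, and the values below it have no order. The highest levels, in rectus femoris and triceps, came from arrays of narrower value range, while gastrocnemius, the third such array, was among the lowest. The mean was 3.25 ± 0.53 (SD, n = 4) in hindlimb and 3.40 ± 0.49 (SD, n = 3) in shoulder and forelimb muscles, a difference of -0.16 (95% interval -0.82 to 0.51, adjusted p = 1.0). Without triceps it was 0.09. Against the head muscles, at 2.90 ± 0.23 (SD, n = 2), the difference was 0.35 for hindlimb (95% interval -0.41 to 1.10, adjusted p = 0.689) and 0.50 for shoulder and forelimb muscles (95% interval -0.30 to 1.30, adjusted p = 0.782). The hindlimb value was 0.10 without rectus femoris and the shoulder and forelimb value 0.26 without triceps, and both head arrays lay at background, so that neither value measures a size.

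Tbx2 and Tbx3, the repressors, passed no test, and their regions overlapped in all 3 comparisons. Tbx2 lay between 3.54 in rectus femoris and 4.51 in gastrocnemius, both hindlimb muscles, with 3.82 to 4.27 in shoulder and forelimb muscles and 3.67 and 4.08 in head muscles. Its hindlimb difference from shoulder and forelimb was 0.00 (95% interval -0.51 to 0.51), and from head 0.19 (95% interval -0.39 to 0.77, adjusted p = 0.783). Shoulder and forelimb minus head was also 0.19 (95% interval -0.42 to 0.79, adjusted p = 0.89). Only 7.38% of the variation of Tbx2 lay between regions.

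Tbx3 was at 5.20 in rectus femoris, 5.17 in tibialis anterior, 5.90 in soleus and 4.65 in gastrocnemius. It was at 5.60 in trapezius, 4.88 in supraspinatus and 5.19 in triceps, and at 5.02 in masseter and 6.02 in digastric. Digastric and soleus were the highest, and they belong to different regions. Hindlimb minus head was -0.29 (95% interval -1.09 to 0.51, adjusted p = 0.755), and 0.21 without digastric. Hindlimb minus shoulder and forelimb was 0.01 (95% interval -0.70 to 0.71, adjusted p = 1.0), and shoulder and forelimb minus head was -0.30 (95% interval -1.14 to 0.54, adjusted p = 0.874). The mean of 12 pericyte and smooth muscle markers was also highest in soleus (7.02) and digastric (6.79), against 6.45 to 6.66 elsewhere, and had an r of 0.75 with Tbx3, or 0.68 without soleus. The part of these cells in the level of Tbx3 was not tested.

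The third comparison, shoulder and forelimb against head muscles, gave 0 of 7 genes past the limma threshold, where 0.0% of all genes passed, and 0 at an unadjusted p under 0.05, against 6.92%. Groups did not overlap for Tbx4 and Tbx18, 2 of 7, in the higher direction, against 15.2% of all genes. They did not overlap for Tbx1 and Tbx15, 2 of 7, in the lower direction, against 14.7%. In either direction that made 4 of 7, against 29.9% of all genes. A single test for any difference among the 3 regions also called 0 of 7, where 0.00451% of genes passed. Its unadjusted p was under 0.05 for 1 of 7, Tbx15, against 7.25% of all genes.

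Tbx18 was at 3.48 in rectus femoris, 3.48 in tibialis anterior, 3.41 in soleus and 3.64 in gastrocnemius. It was at 3.36 in trapezius, 3.40 in supraspinatus and 3.38 in triceps, and at 2.94 in masseter and 3.29 in digastric. The whole range was 0.70. Both head arrays, rectus femoris and triceps did not lie above background, so that the values, although the regions did not overlap, give no order of the regions. Hindlimb minus head was 0.39 (95% interval 0.04 to 0.74, adjusted p = 0.401), and shoulder and forelimb minus head was 0.26 (95% interval -0.10 to 0.63, adjusted p = 0.756), as fitted on values that lay partly at background. Without masseter the first was 0.21 and the second 0.0876. Hindlimb minus shoulder and forelimb was 0.12 (95% interval -0.18 to 0.43, adjusted p = 1.0). Of 13 connective tissue fibroblast markers 10 had a positive hindlimb minus head difference and 0 passed, with list means of 7.17 to 7.40 in hindlimb, 7.18 to 7.47 in shoulder and forelimb, and 6.77 and 7.09 in head muscles, and their part in the Tbx18 difference was not tested. The means of the satellite cell and myogenic factors, 5.11 to 5.49 in hindlimb, 5.13 to 5.20 in shoulder and forelimb and 4.99 and 5.02 in head muscles, had an r of 0.77 with Tbx18. The pericyte and smooth muscle mean had an r of -0.27 with Tbx18, or -0.54 without soleus, and the endothelial mean -0.51. These r values rest partly on background.

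**Figure D3:**
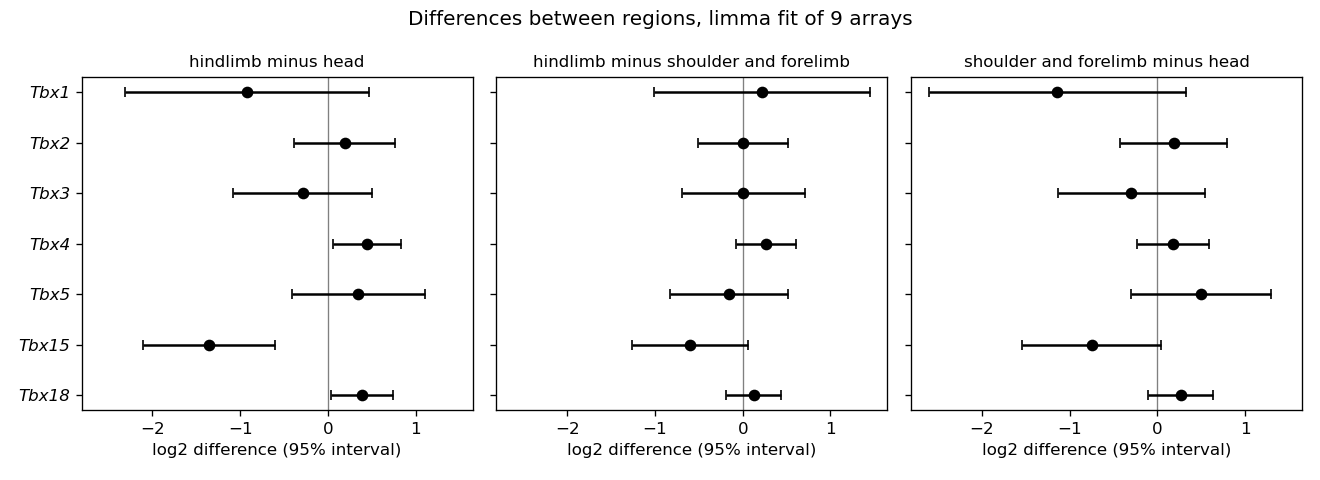
Log2 differences between regions (x axes) with 95% intervals for the 7 T-box genes (rows) from the limma fit of 9 arrays, in 1 panel per comparison. The interval of Tbx15 between hindlimb and head muscles (-2.10 to -0.60) lies furthest from 0, those of Tbx4 and Tbx18 (at background in head muscles) there also lie above 0, and no adjusted p is under 0.05.

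Neither the genomic neighbours nor the pairs of relatives listed here had an r above 0.42 with each other. Tbx1 and Tbx15, which varied together (r = 0.73), are not among these pairs. Tbx2 and Tbx4 lie next to each other with 0 genes between them in the GRCm38.p6 gene table, and had an r of 0.42 over the 9 arrays. Tbx3 and Tbx5 have 0 coding genes between them and an r of -0.35. For 3 pairs of relatives, r was 0.07 for Tbx2 and Tbx3, -0.18 for Tbx4 and Tbx5 and -0.67 for Tbx15 and Tbx18. Tbx4 and Tbx15 ran opposite to each other (r = -0.80, rho = -0.72). These are descriptions of 9 arrays that differ in region and fibre type, and the r values of Tbx5 and Tbx18 rest partly on background.

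**Figure D4:**
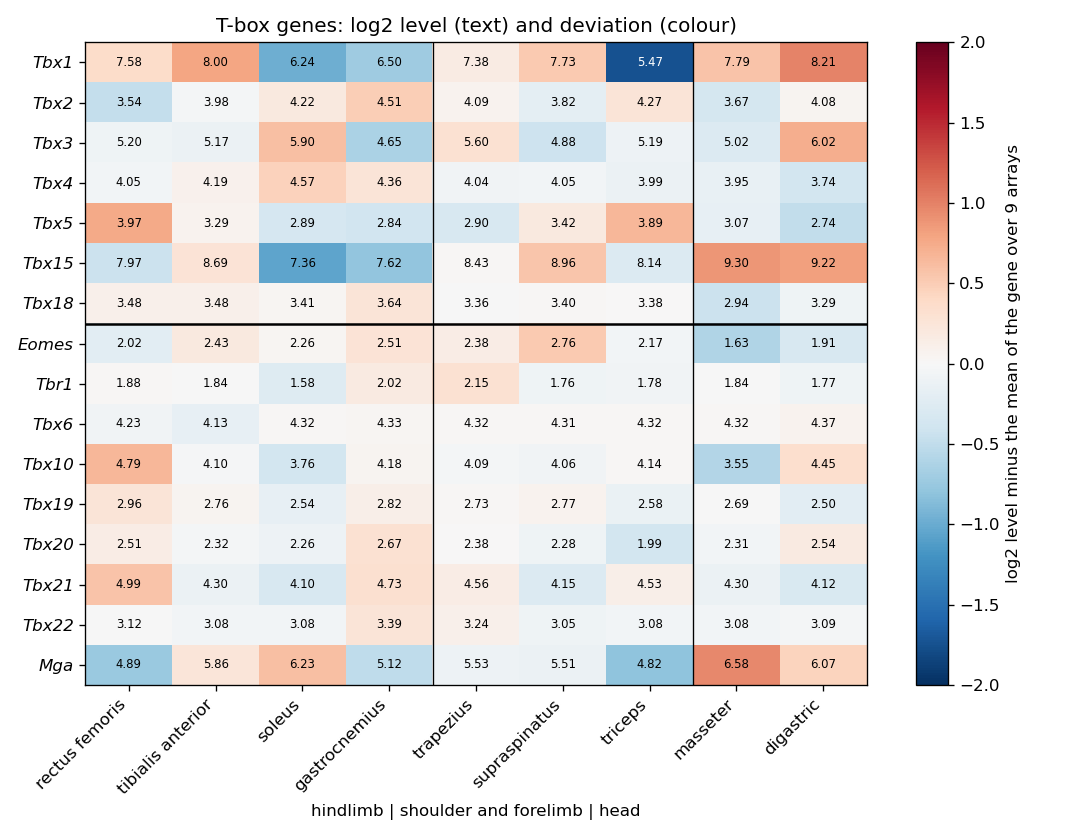
Log2 levels (numbers in the cells) of the 16 measured T-box genes (rows) in 9 muscles (columns, by region), coloured by the deviation from each gene's mean over the arrays, with a line below the 7 genes of head and limb. Tbx1 in triceps (5.47) and Tbx15 in soleus (7.36) are the darkest low cells.

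The share of variation between regions was 68.7% for Tbx18, whose values lay near background, 65.0% for Tbx15 and 62.1% for Tbx4, above the 25.6% of the median gene. It was 18.4% for Tbx5 and 7.98% for Tbx3. The genes most like each member over the 9 arrays, among 10354 or 10355 genes at or above the median level, predicted and small RNA genes left out, were Snx24 (r = 0.97), Uchl5 and Scrn3 for Tbx15, and Rbis (r = 0.95), Denr and Znrd1as for Tbx1. For Tbx18 they were Sdc1 (r = 0.97), Lbx1 (r = 0.95), a gene of migrating limb muscle precursors, and Tle3 (r = 0.94), a Groucho-type corepressor. With Tbx18, 27 of the genes compared had an r of at least 0.9, with Tbx15 38, and with each other member 5 to 8. Tbx18 lay above background on 5 arrays and Tbx5 on 4, so that the r values of both rest partly on background. Sdc1 had only 6 distinct values on the 9 arrays, while each of the 7 T-box genes had 9. Tbx4 was most like Slc52a3, Mphosph6 and Mamdc4 (r from 0.92 to 0.94), and Tbx5 most like Gxylt2, H2-M3 and Ptges (r from 0.95 to 0.97). Tbx2 was most like Neurl1b, Bola2 and Zfp128 (r from 0.92 to 0.94), and Tbx3 most like Rdh5, Gid8 and Fam171a1 (r of 0.91 for each). Bola2 also had only 6 distinct values, all from 4.55 to 4.63.

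Genes known to act with these factors were read in the same fit. Of 24 limb bud genes, 19 had a positive hindlimb minus head difference, beside 12210 of 22180 genes. At an unadjusted p under 0.05 (limma) there were 7, against 11.9% of all genes. After adjustment 1 passed against each other region, Hoxc10, a posterior Hox gene. Over all genes 0.00902% passed against head and 0.00451% against shoulder and forelimb muscles. Hoxc10 was at 7.18 ± 0.45 (SD, n = 4) in hindlimb, 3.58 ± 0.49 (SD, n = 3) in shoulder and forelimb and 3.18 ± 0.17 (SD, n = 2) in head muscles. Hoxc10 did not lie above background in either head muscle, so that it was at least 14.1-fold higher in hindlimb muscles (adjusted p = 0.00249), taking the receptor genes' 95th percentile as its highest level in the head arrays. Without masseter this call was lost (adjusted p = 0.119). The difference from shoulder and forelimb muscles, where supraspinatus was at background, was 3.60 (adjusted p = 0.00206), and it passed with each array left out in turn. The next of that list against head muscles was Hoxc6 (adjusted p = 0.351), at background in both head muscles and in gastrocnemius. Hoxc6 lay above background in 3 of 4 hindlimb muscles, so that its difference measures no size. Against shoulder and forelimb muscles the next was Hoxc9 (a difference of 1.24, adjusted p = 1.0). Hoxc9 was at background in supraspinatus (3.10) and little above it in trapezius (3.44) and triceps (3.58), so that 1.24 measures no size. The list's median difference from head was 0.27, beside 0.04 over all genes. None of the genes on the other lists of partners passed. For the 21 head muscle genes of the Tbx1 network the median difference between hindlimb and head was 0.28, led by Nkx2-5 (0.80, adjusted p = 0.365) and Foxc2 (0.67, adjusted p = 0.391). Foxc2 averaged 3.11 ± 0.11 (SD, n = 2) in head muscles, under the receptor genes' 95th percentile there (3.34 and 3.40), so that 0.67 measures no size. Between shoulder and forelimb and head muscles Six2, a homeobox gene, was at -1.27 (adjusted p = 0.72) and Aldh1a2, a retinoic acid synthesis enzyme, at -1.03 (adjusted p = 0.72).

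Among 14 genes linked to Tbx2 and Tbx3 the median difference between hindlimb and head was 0.12, with Nkx2-5 as above and the cell cycle inhibitor Cdkn1a at -0.66 (adjusted p = 0.537). Among 13 genes linked to Tbx15 and Tbx18 the median was 0.35. Their largest differences were those of Prkag3, an AMP-activated kinase subunit of glycolytic muscle, at 1.40 (adjusted p = 0.399), and of the corepressor Tle4 at -1.28 (adjusted p = 0.355). Tle4 thus had the sign of Tbx15 and Prkag3 the opposite one, each with a wide spread in 1 region. Tle4 was at 5.57 ± 0.25 (SD, n = 4) in hindlimb and 6.85 ± 0.93 (SD, n = 2) in head muscles. Prkag3 was at 6.77 ± 1.13 (SD, n = 4) in hindlimb and 5.37 ± 0.18 (SD, n = 2) in head muscles.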

How the data were processed

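Per the labels' protocols, labelled cDNA from total RNA of frozen muscle was hybridised to GeneChip Mouse Gene 2.0 ST arrays. The deposited values are log2 levels per probe set, and GCRMA is named without a version in the submitters' processing notes. That these are log2 follows from the range of the values. Of 41345 probe sets, 23521 named a single gene, of which 23328 matched the GRCm38.p6 gene table by Entrez identifier. The probe set with the highest mean was used, which left 22180 genes. No source used here names a genome build for the array.

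All 9 arrays entered 1 limma fit (limma 3.58.1, R 4.3.3) with a mean per region and eBayes without trend, with 6 residual degrees of freedom. The 2-sided tests of 3 pairs of regions and an F test were adjusted by Benjamini-Hochberg over all genes, with a threshold of 0.05. The fit was tested on simulated data in which 200 genes were shifted. It called 47.6% of shifts of 1 log2 unit for hindlimb minus head. For hindlimb minus shoulder and forelimb it called 69.4%, and for shoulder and forelimb minus head 40.5%. Shifts of 2 log2 units were called in 97.3% to 98.9%. The number of arrays limits the precision. The genes, lists and tests were chosen with earlier results of these data known. Named were the 7 T-box genes, from each list the called or the 2 most different genes, and per T-box gene the 3 with the highest r.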

Additional observations from a re-analysis of the deposited data

How the results depend on the processing

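The 7 genes stayed under the threshold under all 20 alternative settings, with a lowest adjusted p of 0.115 (limma). Of 414 signed differences, 392 kept their sign and 22 turned it, and all 131 F tests stayed above the threshold. Average probe set values equalled the main ones, since each gene had 1 probe set, and no other probe set was there to try. Tbx5 and Tbx18 were not in the fit of genes at or above the median.

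For hindlimb minus head, among only the 6 arrays with the wider range Tbx3 was 0.0134. With 1 array left out Tbx3 ran from -0.79 to 0.21 and Tbx2 from -0.0176 to 0.39. For hindlimb minus shoulder and forelimb, Tbx1 was -0.44 among those 6 arrays. Tbx2 was -0.0288 with median centring, -0.0271 with quantile and -0.0299 with cyclic loess normalization, -0.0113 with value range as a term and -0.0512 with the slow fibre score. Tbx3 was -0.0248 with median centring and -0.10 with the slow fibre score. With 1 array left out, Tbx1 ran from -0.48 to 0.66, Tbx2 from -0.15 to 0.18, Tbx3 from -0.22 to 0.20 and Tbx5 from -0.41 to 0.0857. For shoulder and forelimb minus head, Tbx2 then ran from -0.0201 to 0.39 and Tbx3 from -0.80 to 0.20. The cause of these turns was not tested.

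Over all genes, hindlimb minus head called 2. It called 1 with median centring, only the compared arrays, only the wider arrays, trapezius as head, value range as a term or variance trend, and 4 with the slow fibre score. With 1 array left out it called from 0 (without masseter) to 19 (without soleus), the F test from 1 to 5 and shoulder and forelimb minus head from 0 to 4 (without digastric). No paired analysis was possible because the labels do not say which animal an array came from.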

Other observations

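The 9 other T-box genes measured gave 0 calls by limma in the 3 comparisons. Mga, a large protein with a T-box that also pairs with Max, was at 4.89 in rectus femoris, 5.86 in tibialis anterior, 6.23 in soleus and 5.12 in gastrocnemius. It was at 5.53 in trapezius, 5.51 in supraspinatus and 4.82 in triceps, and at 6.58 in masseter and 6.07 in digastric. The 3 arrays of narrower value range had the 3 levels of Mga nearest the bottom. Shoulder and forelimb minus head was -1.04 (adjusted p = 0.718) and hindlimb minus head -0.80 (adjusted p = 0.425). Eomes, known from lymphocytes and the early embryo, lay below the receptor genes' 95th percentile on every array, from 1.63 in masseter to 2.76 in supraspinatus. Tbx6, a gene of the presomitic mesoderm, varied only from 4.13 to 4.37.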
